A study of Mus musculus with 4 samples.

Results

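The chemokines CCL1, CCL17, CCL22 and CCL20 and the receptors CCR8, CCR4 and CCR6 form 3 signalling axes known to draw regulatory T cells (Treg) into tissues and tumours. The 7 genes, 4 ligands and 3 receptors, were taken by symbol from the 32285 genes of each library, and all 7 were present. They were followed in cells from tumours of Pan02, a mouse pancreatic cancer line, grown under the skin of female C57BL/6 mice of 6 to 7 weeks. Mice were grouped at a tumour size near 50 mm3 and treated 3 times a week in 4 groups, named here anti-PD-1, anti-LIF, combo (both antibodies) and control (IgG). Per the labels, doses were 200 µg for anti-PD-1, which blocks the T cell checkpoint receptor PD-1, and 25 mg/kg for IgG and for anti-LIF, which blocks the cytokine LIF. The labels give 1 protocol text for all groups, so which antibody accompanied each single treatment is not spelled out there. Per group, material of 3 samples went into 1 library, so single mice cannot be followed. There were therefore no replicates, nothing was tested, and each interval in brackets is a 95% interval that covers counting error only.

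CCL17 and CCL22 both bind CCR4, a receptor of Treg, of T helper 2 cells and of other memory CD4 T cells, and dendritic cells and alternatively activated macrophages are their best known sources. CCL1 binds CCR8, a receptor that is high on Treg inside tumours, and is released by activated T cells, mast cells and innate lymphoid cells. CCL20 binds CCR6, which is carried by B cells, by some dendritic cells, by a part of Treg and by T cells that make interleukin-17, and it comes mainly from epithelial cells exposed to interleukin-17, TNF or interleukin-1.

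After filtering, 14392 anti-PD-1, 14014 anti-LIF, 16397 combo and 18640 control cells remained, with medians between 1674.5 and 2288 UMIs (counted molecules) per cell. A cell was placed in a class, such as Treg or mature dendritic cell (mature DC), by the marker genes it held, none of which was among the 7 genes, and 77.3% to 84% of cells found a class. Markers listed to check the gate were higher inside their class than outside in 199 of 205 gene and library values. Among these were all 16 for Treg and all 12 each for mature DC and mast cells. Cd8b1, listed for CD8 T cells, also served in their gate, so its values were no check, while the others were kept out of the gate of their class. Between 28.4% and 37.6% of cells held 2 or more markers of a class other than their own, doublets were not removed, and 277 to 392 barcodes were shared by each pair of libraries. Levels are CPM, that is UMIs of a gene divided by all UMIs of the class in that library and scaled to 1000000. The 3 treated libraries are all set against the same control library.

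On mm10, Ccl22 lies at chr8:94745590-94751699 and Ccl17 at chr8:94810453-94812036, both on the plus strand, 58753 bases apart, with Cx3cl1 the single protein-coding gene between them. Ccl1 is on chromosome 11, Ccl20 on chromosome 1, Ccr6 on chromosome 17, and Ccr4 and Ccr8 are both on chromosome 9 but 5587197 bases apart. The stretches before the start sites of the 3 ligand genes with the most UMIs are printed here, since these genes carry the differences that follow. The sequences are from RefSeq on GRCm38.p6, each is given 5′ to 3′ on the strand of its gene, and capitals mark matches to the motifs named after them.
Ccl17, chr8:94810203-94810452 (+): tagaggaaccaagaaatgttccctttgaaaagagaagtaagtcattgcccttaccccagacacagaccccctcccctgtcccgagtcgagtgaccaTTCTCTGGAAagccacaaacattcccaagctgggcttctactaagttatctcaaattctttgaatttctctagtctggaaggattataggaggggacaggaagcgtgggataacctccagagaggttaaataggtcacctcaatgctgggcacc
Ccl22, chr8:94745434-94745589 (+): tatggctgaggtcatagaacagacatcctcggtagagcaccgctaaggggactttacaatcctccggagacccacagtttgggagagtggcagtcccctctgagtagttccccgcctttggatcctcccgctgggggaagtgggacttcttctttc
Ccl1, chr11:82179813-82180062 (-): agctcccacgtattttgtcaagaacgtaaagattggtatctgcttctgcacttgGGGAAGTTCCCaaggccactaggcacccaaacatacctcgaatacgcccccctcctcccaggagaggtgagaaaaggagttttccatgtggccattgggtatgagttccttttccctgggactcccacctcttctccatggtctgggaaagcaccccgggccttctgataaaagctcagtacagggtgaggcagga
Both strands of the 250 bases before each start were searched for TTC and GAA with any 4 bases between, a spacing known for STAT6. They were also searched for GGGA and TTCC with any 2 bases between, a form known for NF-kB, and for the looser GGG and TTCC with any 3 bases between. The Ccl17 match to the STAT6 motif lay 154 to 145 bases before the start, and 5.85% of 32851 promoters held that motif. In Ccl1, the first NF-kB motif matched on both strands at positions that overlap, 196 to 186 bases before the start, and 1.21% of promoters held it. Ccl22 had no match to any of the 3 motifs in its 250 bases, of which the 156 bases ahead of its first annotated exon are printed. The looser motif, present in 4.65% of promoters, takes in the Ccl1 match and also matched in Ccl20 and at 1 of the 2 starts of Ccr6. A match is a description of the letters and says nothing on whether a factor binds there.

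The genes differed in how far they were confined to a class. Over the 4 libraries, mature DC held 61.5% of 8505 Ccl22 UMIs though they were 332 of 63443 cells. Ccl17 was spread more widely, with 28.9% of 2423 UMIs in conventional type 2 dendritic cells (cDC2), 22.2% in mature DC and 12.8% in macrophages. Of 2320 Ccl1 UMIs, T cells held 44.1% and mast cells 40.9%. The receptors were scarce: Ccr8 had 152 UMIs, Ccr4 had 132 and Ccr6 had 163, of which T cells held 85.5%, 82.6% and 67.5%. Ccl20 was close to absent, with 41 UMIs, 90.2% of them in fibroblasts. Cells without a class held 17.4% of the Ccl17 UMIs, 12.1% of the Ccl22 UMIs and 7.59% of the Ccl1 UMIs.

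**Figure D1:**
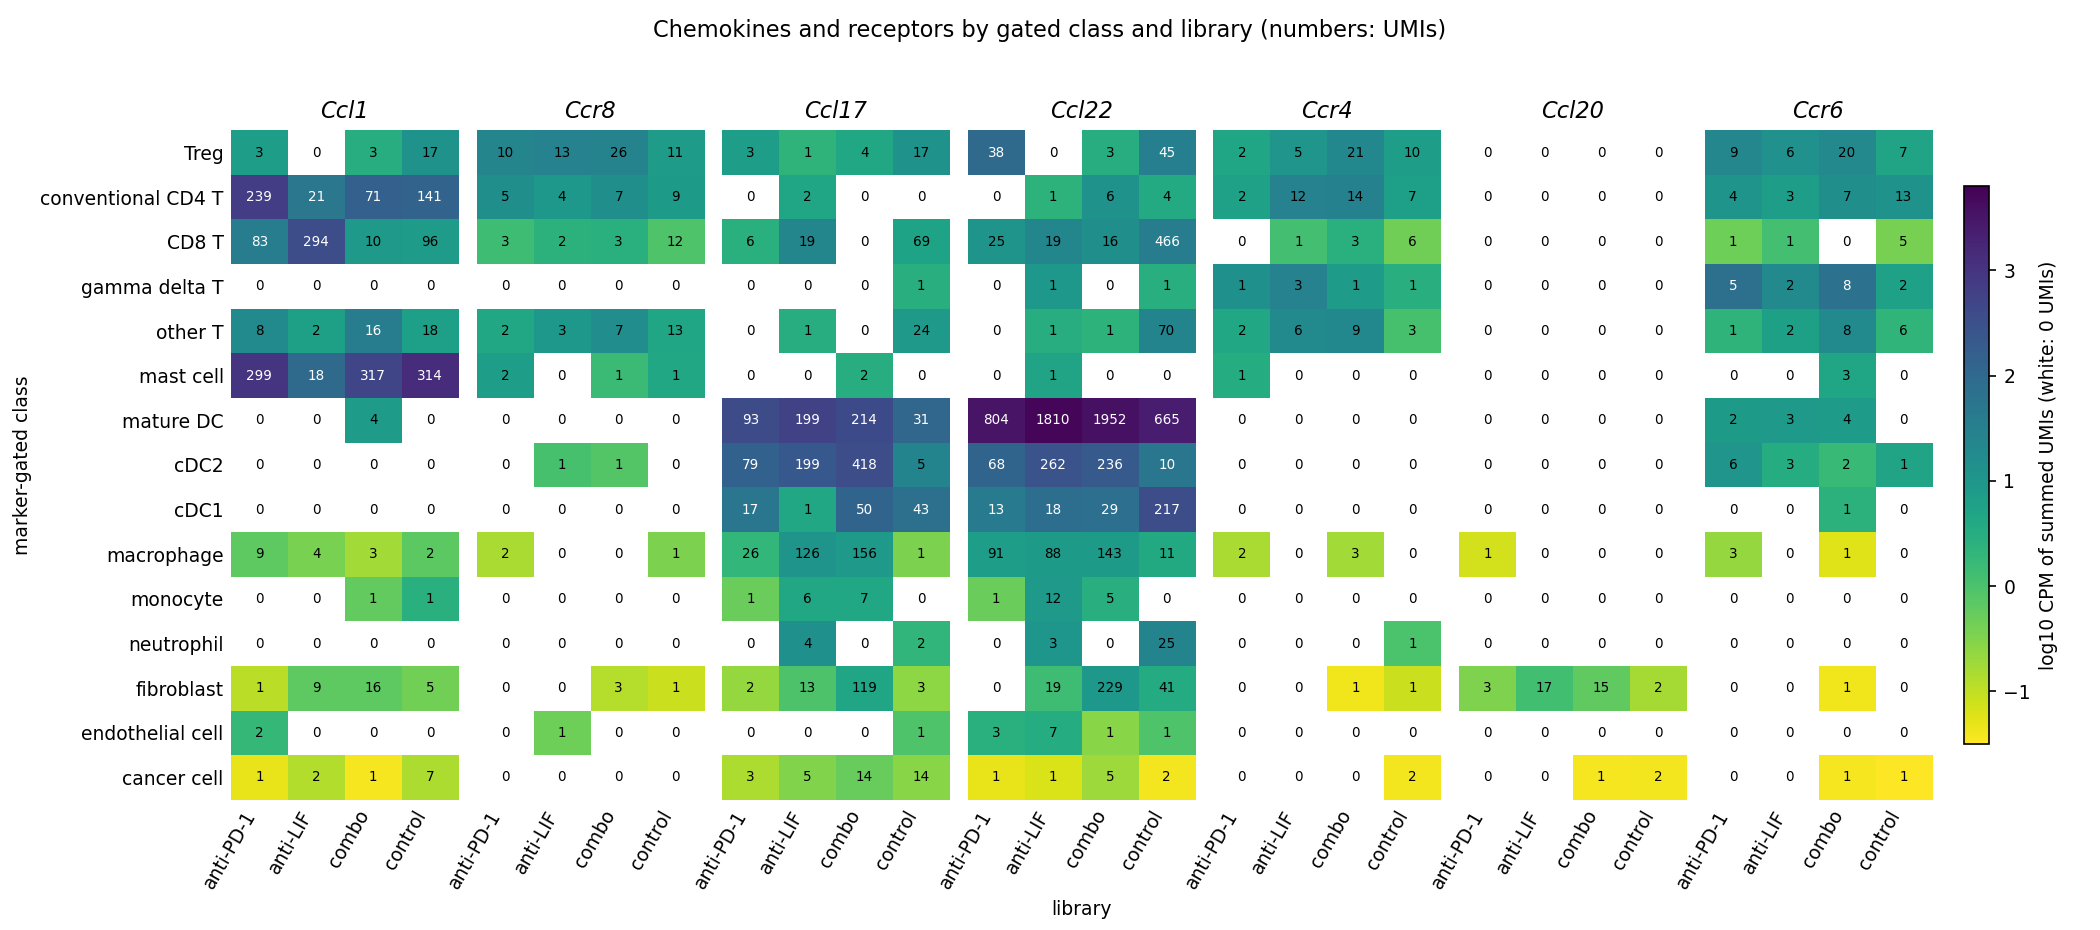
CPM (colour, log10 scale, white for 0 UMIs) of the 7 genes in 15 gated classes (rows) and 4 libraries (columns within each panel), with the number of UMIs printed in each field. Among the classes drawn, Ccl22 was highest in mature DC, Ccl1 was high in mast cells and T cells, and the 3 receptors were mostly in the T cell subsets. Type 2 innate lymphoid cells, 39 cells in the 4 libraries, are not drawn, and their pooled Ccl1 level was 1339 CPM.

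Ccl22, the ligand with the higher count in dendritic cells, was at 3260 CPM in anti-PD-1 mature DC, 5238 CPM in anti-LIF and 3679 CPM in combo, against 2394 CPM in control. These levels rest on 804 UMIs in 63 cells, 1810 in 93 cells and 1952 in 118 cells, against 665 UMIs in 58 control cells. All 3 treated libraries were above control, with log2 ratios of 0.45 [0.30, 0.60], 1.13 [1.00, 1.26] and 0.62 [0.49, 0.75]. The size of this difference depended on how cells were counted. With a stricter gate (at least 3 markers and at most 1 of any other class) the levels were 5949, 6507 and 3759 CPM in the anti-PD-1, anti-LIF and combo libraries, against 4892 CPM in control, so that combo was below control. With each cell thinned to 1000 UMIs, the share of mature DC with a Ccl22 UMI was 59.6%, 67.1% and 60.2% in the anti-PD-1, anti-LIF and combo libraries, against 63.6% in control, and the intervals overlapped. Before thinning the shares were 68.3%, 79.6% and 72.0%, against 79.3% in control. In cancer cells, which should lack the gene, the thinned share was at most 0.0535%.

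Ccl17, the second CCR4 ligand, differed more than Ccl22. In mature DC it was at 377 CPM in anti-PD-1, 576 CPM in anti-LIF and 403 CPM in combo, against 112 CPM in control. The UMIs behind these levels were 93, 199 and 214 in the anti-PD-1, anti-LIF and combo libraries and 31 in control, and the 10 richest cells of a library held 77.9% to 87.1% of them. The log2 ratios were 1.76 [1.16, 2.39], 2.37 [1.82, 2.96] and 1.85 [1.31, 2.45], and they stayed between 1.21 and 3.31 under every alternative tried. Thinned to equal depth, 19.3%, 21.9% and 16.5% of treated mature DC had a Ccl17 UMI, against 7.27% in control, where the interval [2.02, 17.6] overlapped each of the others. The thinned share was at most 0.161% in cancer cells. The number of Ccl22 UMIs per Ccl17 UMI in mature DC was 8.65 [6.97, 10.8] in anti-PD-1, a ratio of 9.10 [7.85, 10.6] in anti-LIF and of 9.12 [7.92, 10.6] in combo, against 21.5 [15, 31.8] in control. This ratio of counts was thus alike in the 3 treated libraries and higher in control.

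Within single mature DC the 2 genes were nested. Of the 332 cells, 90 held both, 158 held only Ccl22, 81 held neither and only 3 held Ccl17 without Ccl22. In cDC2 the pattern was different: of 715 cells, 62 held both, 74 only Ccl17 and 52 only Ccl22. Since both genes are counted from few molecules, a cell without a UMI may still express the gene.

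The less mature cDC2 held little of either chemokine in the control library. Ccl17 was at 143 CPM in anti-PD-1 cDC2, 215 CPM in anti-LIF and 345 CPM in combo, against 25.7 CPM in control. The treated levels were built on 79 UMIs in 144 cells, 199 in 251 and 418 in 266, and the control level on 5 UMIs in 54 cells. The log2 ratios were 2.47 [1.19, 4.14], 3.07 [1.82, 4.70] and 3.75 [2.51, 5.38], and 2-fold or more higher levels were seen for 8.46%, 10.4% and 10.3% of all genes measured in cDC2. With the stricter gate the Ccl17 ratios were 0.78 [-0.99, 3.19], 1.30 [-0.34, 3.63] and 2.39 [0.81, 4.69] for these libraries, so that combo alone had an interval above 0. Ccl22 in cDC2 was at 123, 283 and 195 CPM in the anti-PD-1, anti-LIF and combo libraries, against 51.4 CPM in control. Type 1 dendritic cells (cDC1), which present antigen to CD8 T cells, went the other way for Ccl22, with 39.5, 77.7 and 72.4 CPM in the anti-PD-1, anti-LIF and combo libraries against 351 CPM in control. Ccl17 in cDC1 had no common direction: it was at 51.7, 4.32 and 125 CPM in the anti-PD-1, anti-LIF and combo libraries, the anti-LIF level from 1 UMI, against 69.6 CPM in control. Its log2 ratio was 0.84 [0.23, 1.47] for combo, -4.01 [-9.35, -1.45] for anti-LIF and -0.43 [-1.33, 0.41] for anti-PD-1. In control cDC1 the richest cell held 50 of 217 Ccl22 UMIs. The share of cDC1 with 2 or more markers of another class was 45.5%, 52.1% and 76.3% in the anti-PD-1, anti-LIF and combo libraries, against 50.8% in control. The part of such cells in the cDC1 difference was not tested.

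In macrophages, cells that can make both ligands after exposure to interleukin-4, the levels were far lower. Ccl17 was at 1.93 CPM in anti-PD-1 macrophages, 11.6 CPM in anti-LIF and 8.90 CPM in combo, against 0.350 CPM in control, where 535 macrophages held 1 UMI. From that single control UMI the fold was 5.51 [0.904, 226] for anti-PD-1, a fold of 33.0 [5.82, 1314] for anti-LIF and a fold of 25.4 [4.50, 1010] for combo. Only the interval of anti-PD-1 reached below 1. Macrophage Ccl22 was at 6.75, 8.07 and 8.16 CPM in the anti-PD-1, anti-LIF and combo libraries, against 3.85 CPM in control. With the stricter gate the order turned, to 3.79, 4.12 and 4.71 CPM in the anti-PD-1, anti-LIF and combo libraries against 6.91 CPM in control, from 6 UMIs. In those strictly gated macrophages the levels of Ccl17 were 0.379, 3.88 and 4.32 CPM in the anti-PD-1, anti-LIF and combo libraries, against 1.15 CPM in control, so anti-PD-1 was no longer above it.

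**Figure D2:**
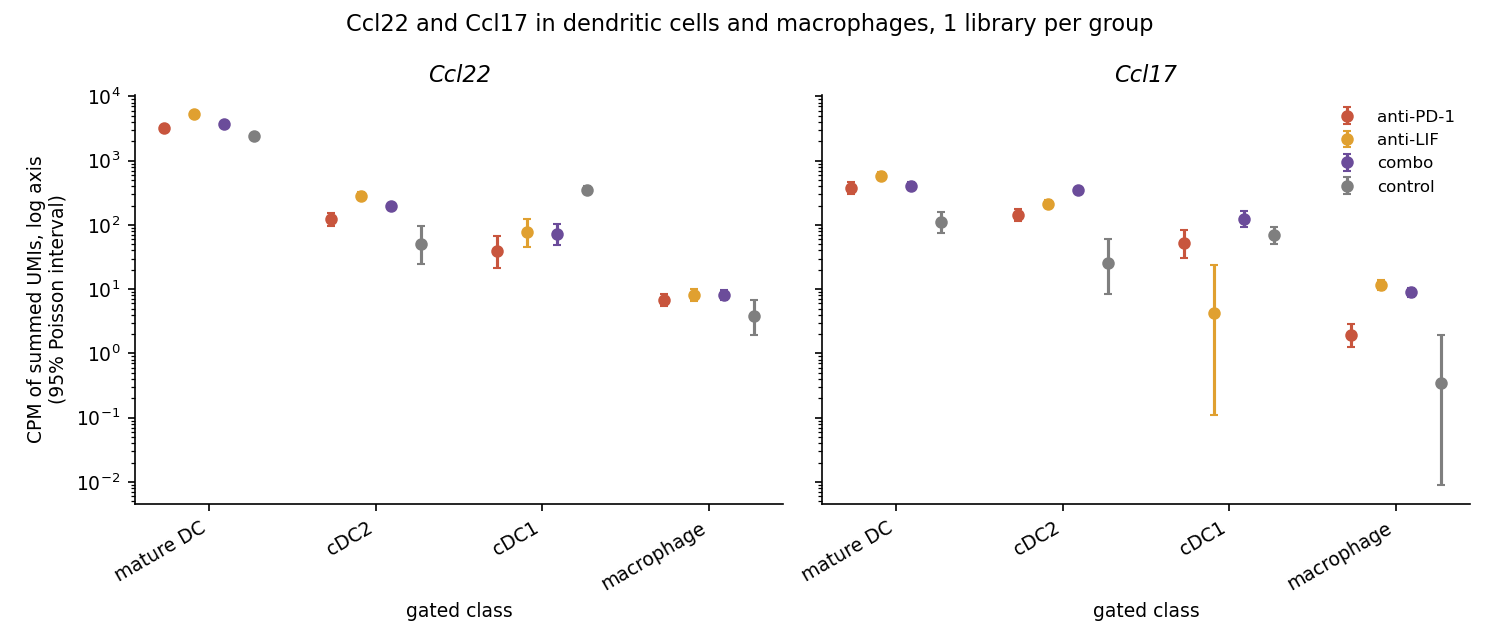
Levels of Ccl22 (left) and Ccl17 (right) in 4 antigen-presenting classes, as CPM on a log axis; points are single libraries and bars are 95% Poisson intervals for counting error. In mature DC and cDC2 the control library was lowest for both genes, while for Ccl22 in cDC1 it was highest at 351 CPM.

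Part of the Ccl22 of the control library sat in cells gated as T cells. T cells held 63 Ccl22 UMIs in anti-PD-1, 22 UMIs in anti-LIF and 26 UMIs in combo, against 586 in control. Of the control UMIs, 82.3% were in the 117 control T cells with 2 or more mature DC markers, and there were 15, 6 and 9 such T cells in the anti-PD-1, anti-LIF and combo libraries. The control T cells with a Ccl22 UMI had a median of 6817.5 UMIs in total, and all control T cells had a median of 1570. In the combo library a single cell gated as fibroblast, with 4 mature DC markers, held 198 of the 229 fibroblast Ccl22 UMIs. T cells also held 3.67%, 3.08% and 0.338% of the Ccl17 UMIs of the anti-PD-1, anti-LIF and combo libraries, against 44.8% in control. Of these 111 control UMIs, 47.7% were in T cells with 2 or more mature DC markers. Whether such cells are doublets was not tested. Mature DC made up 0.438% of anti-PD-1 cells, 0.664% of anti-LIF and 0.720% of combo cells, against 0.311% of control cells. Summed over all cells, Ccl22 was at 17.3, 45.6 and 34.8 CPM in the anti-PD-1, anti-LIF and combo libraries, against 17.4 CPM in control, and Ccl17 was at 3.81, 13.8 and 13.2 CPM, against 2.40 CPM in control. Over whole libraries more cells of a type and more RNA per cell cannot be told apart.

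CCR4, the receptor of both ligands, was found in few cells. Treg held 2 Ccr4 UMIs in anti-PD-1, 5 UMIs in anti-LIF and 21 in combo, against 10 in control, among 164, 162, 319 and 398 cells in that order of libraries. These counts gave 4.83, 11 and 21.6 CPM in the anti-PD-1, anti-LIF and combo libraries, against 7.23 CPM in control. Combo was above control, with a log2 ratio of 1.58 [0.43, 2.83], while the ratios of anti-PD-1, -0.58 [-3.81, 1.65], and anti-LIF, 0.61 [-1.29, 2.29], had intervals on both sides of 0. With the stricter gate the combo ratio was 0.16 [-1.69, 1.96], near 0. Conventional CD4 T cells were gated by Cd4 without a Foxp3 UMI, so Treg whose Foxp3 was not counted may be among them. This class held 2, 12 and 14 Ccr4 UMIs in the anti-PD-1, anti-LIF and combo libraries, against 7 in control. The levels were 5.75, 28.5 and 29.2 CPM, against 6.34 CPM in control. In these cells anti-LIF, with a log2 ratio of 2.17 [0.71, 3.75], and combo, with 2.20 [0.80, 3.75], were above control, and the stricter gate gave 2.54 and 2.47. CD8 T cells held 0, 1 and 3 Ccr4 UMIs in the anti-PD-1, anti-LIF and combo libraries and 6 in control, the last among 4734 cells. Over all T cells Ccr4 was at 2.04, 12.7 and 15.4 CPM in the anti-PD-1, anti-LIF and combo libraries, against 1.44 CPM in control. The share of CD8 cells, which hold little Ccr4, among T cells was 63.9%, 39.3% and 38.1% in these libraries, against 66.6% in control.

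Ccl1 counts were very uneven from cell to cell. In mast cells, granule-bearing cells that release histamine and proteases, Ccl1 was at 1007 CPM in anti-PD-1, 92.8 CPM in anti-LIF and 487 CPM in combo, against 1332 CPM in control. The UMIs were 299 in 124 cells, 18 in 69 cells and 317 in 178 cells, against 314 in 76 control cells. With this gate control was highest and anti-LIF lowest, with log2 ratios of -0.40 [-0.64, -0.17], -3.84 [-4.62, -3.16] and -1.45 [-1.68, -1.22]. Among all genes measured in mast cells, 4.98%, 11.1% and 5.78% were 2-fold or more lower in the anti-PD-1, anti-LIF and combo libraries. At equal depth 18.9% of anti-PD-1 mast cells, 0 of 52 anti-LIF mast cells (which allows up to 5.77%) and 15 of 150 combo mast cells had a Ccl1 UMI, against 33.3% in control. Before thinning those shares were 25.0%, 5.80% and 12.4%, against 31.6% in control. The control mast cells were less pure by their markers. Mast cells with 2 or more T cell markers were 2 of 124, 0 of 69 and 4 of 178 in the anti-PD-1, anti-LIF and combo libraries, against 16 of 76 in control, and those 16 cells held 41.1% of the control Ccl1 UMIs. The mast cell genes kept out of the gate were higher in every treated library than in control, with Slc6a4, the serotonin transporter, at 202, 634 and 526 CPM against 76.4 CPM. Their part in the Ccl1 difference was not tested. Without the 10 richest cells of each library the anti-PD-1 ratio turned to 0.18. The stricter gate gave another order but left out most mast cells. Those with 2 or more markers of another class were 76.6%, 84.1% and 90.4% in the anti-PD-1, anti-LIF and combo libraries, against 86.8% in control. Hdc, a mast cell gene used to check the gate, is also a gate marker of basophils here. Hdc alone does not fail a mast cell, since the stricter gate allows 1 marker of another class. A true mast cell with Hdc and 1 more basophil marker would fail it, so the cells left need not be purer. How many mast cells failed in this way was not counted. Anti-PD-1 mast cells were then at 1393 CPM [995, 1896] from 40 UMIs in 26 cells, anti-LIF at 794 CPM [258, 1854] from 5 UMIs in 8 cells, and no UMI was left in 13 combo cells (up to 240 CPM) or 9 control cells (up to 287 CPM).

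Over all T cells, control was lowest and anti-LIF highest. Ccl1 was at 96.9 CPM in anti-PD-1 T cells, 149 CPM in anti-LIF and 32.1 CPM in combo, against 14.5 CPM in control. The log2 ratios were 2.74 [2.51, 2.98], 3.37 [3.13, 3.61] and 1.15 [0.80, 1.48]. With the stricter gate the levels were 180, 80.6 and 21.4 CPM in the anti-PD-1, anti-LIF and combo libraries, against 22.2 CPM in control, so that anti-LIF was no longer highest and combo no longer above control. The subsets differed. Conventional CD4 T cells were at 687, 49.9 and 148 CPM in the anti-PD-1, anti-LIF and combo libraries, against 128 CPM in control, with log2 ratios of 2.43 [2.12, 2.74], -1.36 [-2.09, -0.69] and 0.21 [-0.22, 0.63]. CD8 T cells were at 38.4, 358 and 9.05 CPM, against 7.29 CPM in control. Anti-LIF was thus below control in conventional CD4 T cells and above it in CD8 T cells. Single cells carried much of these levels. In anti-PD-1 a single conventional CD4 T cell held 166 of the 668 Ccl1 UMIs of the whole library, in anti-LIF 1 CD8 T cell held 204 of 434, and in control 1 conventional CD4 T cell held 104 of 675. Without the 10 richest cells of each library the ratios in T cells were 1.39 and 1.57 for anti-PD-1 and anti-LIF, and the combo ratio was 0.60 [-0.20, 1.34]. The shares of T cells with a Ccl1 UMI were less far apart: 30 of 1750, 26 of 1173 and 25 of 1499 in the anti-PD-1, anti-LIF and combo libraries, against 68 of 7111 in control, or 1.71%, 2.22% and 1.67% against 0.956%. Among CD8 T cells thinned to equal depth, 0.938%, 3.86% and 0.683% had a UMI in the anti-PD-1, anti-LIF and combo libraries, against 0.248% in control. Treg themselves held almost none, with 3, 0 and 3 UMIs in the anti-PD-1, anti-LIF and combo libraries and 17 in control, 11 of these in 1 cell. Cells gated as type 2 innate lymphoid cells, at most 15 in a library, held 0 UMIs in anti-PD-1, 53 UMIs in anti-LIF and 17 UMIs in combo, against 31 in control. Pooled over the 4 libraries their level was 1339 CPM, from 12 of 39 cells with a UMI, and that of mast cells was 688 CPM. The gate of the innate lymphoid cells had 0 check values. In cancer cells thinned alike, at most 0.0556% had a Ccl1 UMI.

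**Figure D3:**
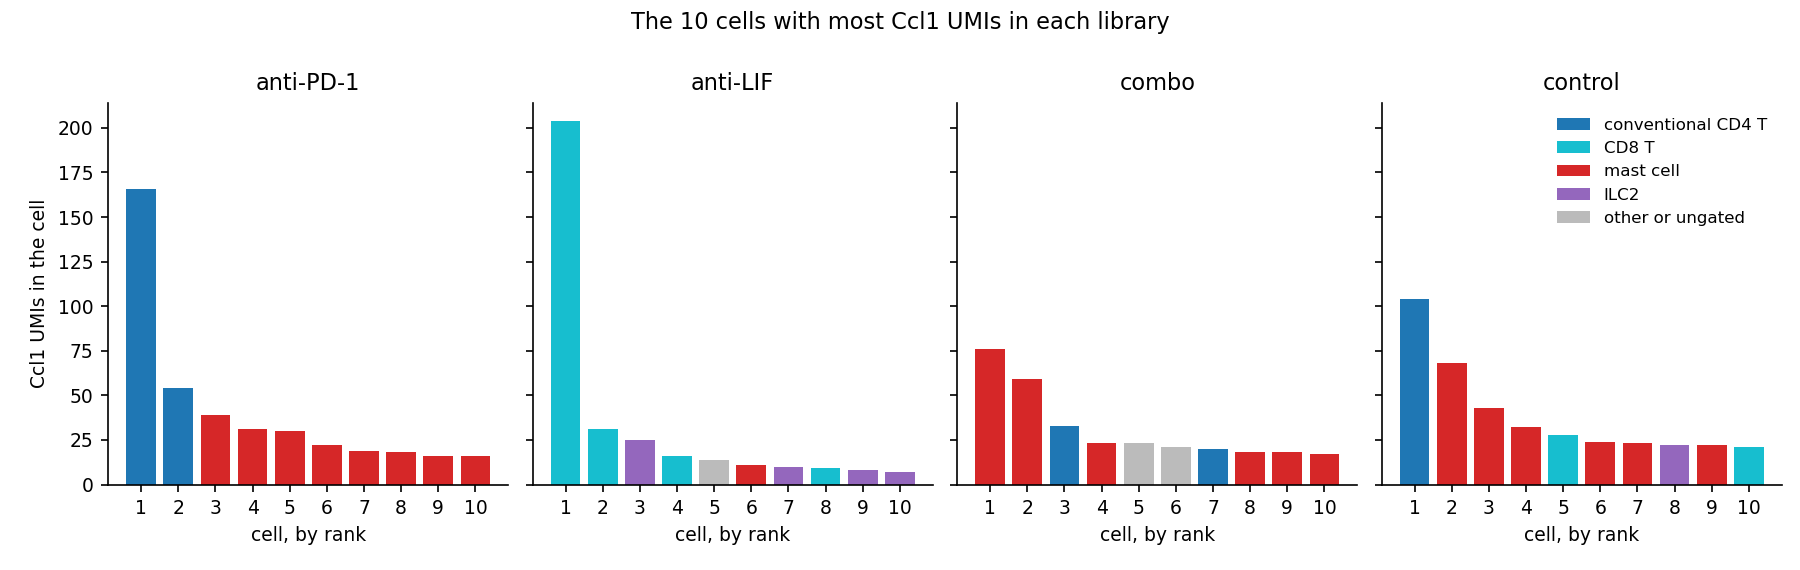
Number of Ccl1 UMIs in each of the 10 cells with the most of them in each library, coloured by the class of the cell. In anti-PD-1, anti-LIF and control the richest cell was a T cell, with 166, 204 and 104 UMIs, and in combo it was a mast cell with 76.

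CCR8, the CCL1 receptor, was higher in Treg of all 3 treated libraries. Treg held 10 Ccr8 UMIs in anti-PD-1, 13 UMIs in anti-LIF and 26 in combo, against 11 in control, although control had the most Treg. Levels were 24.1 [11.6, 44.4], 28.7 [15.3, 49.1] and 26.7 [17.5, 39.2] CPM in the anti-PD-1, anti-LIF and combo libraries, against 7.95 [3.97, 14.2] CPM in control. The treated libraries were close to each other, and the log2 ratios to control were 1.60 [0.21, 2.98], 1.85 [0.58, 3.15] and 1.75 [0.68, 2.91]. At equal depth 3.45%, 4.72% and 3.32% of Treg had a Ccr8 UMI in the anti-PD-1, anti-LIF and combo libraries, against 1.22% [0.334, 3.10] in control, with intervals that overlapped. Unthinned, the shares were 5.49%, 6.79% and 6.58% against 2.76%. The ratios stayed above 0 under every alternative that gave a value, but with the stricter gate they were 1.33 [-0.30, 2.87], 0.92 [-0.98, 2.60] and 0.87 [-0.41, 2.20], and those intervals take in 0, as do those after thinning. No Ccr8 UMI was seen in any cancer cell, neutrophil or gamma delta T cell, which in thinned cancer cells allows shares of up to 0.0703% to 0.197%.

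A larger share of the Ccr8 UMIs lay in Treg where mice were treated. Treg held 41.7%, 46.4% and 51.0% of the Ccr8 UMIs of anti-PD-1, anti-LIF and combo, against 22.4% in control, where CD8 T cells held 24.5%. In conventional CD4 T cells the levels were 14.4, 9.50 and 14.6 CPM against 8.15 CPM in control, and all 3 intervals of the ratio took in 0. Treg made up 9.37%, 13.8% and 21.3% of T cells in the anti-PD-1, anti-LIF and combo libraries, against 5.60% in control, but 1.14%, 1.16% and 1.95% of all cells, against 2.14% in control. Over all cells Ccr8 was at 0.373, 0.519 and 0.568 CPM in the anti-PD-1, anti-LIF and combo libraries, against 0.473 CPM in control, and the intervals of the 3 ratios took in 0. Ccr8 and Ccr4 were rarely counted in the same Treg: 2 of 1043 cells held both, 50 only Ccr8 and 31 only Ccr4.

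**Figure D4:**
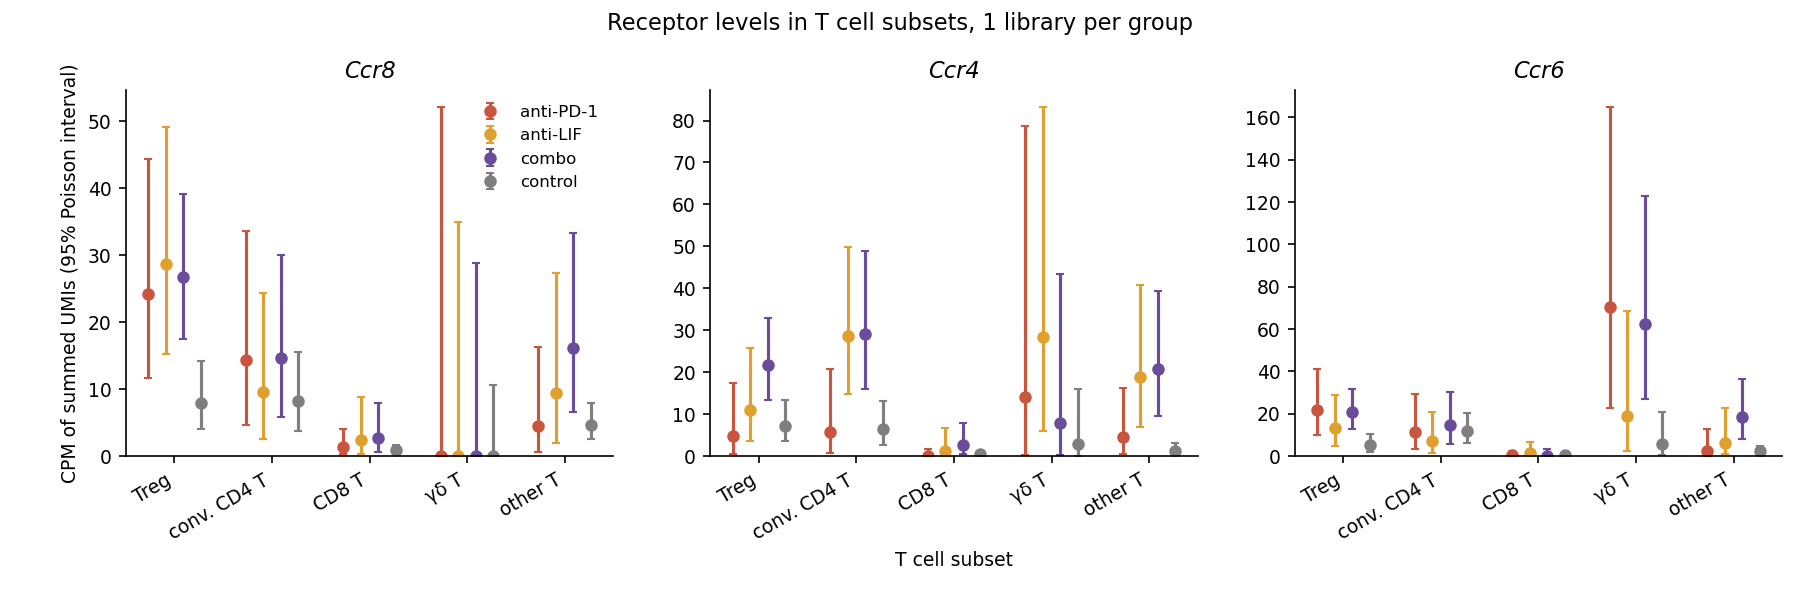
Levels of Ccr8, Ccr4 and Ccr6 in 5 T cell subsets, as CPM with 95% Poisson intervals; each point is 1 library, the scales differ between panels, and conv. stands for conventional. Ccr8 in Treg was between 24.1 and 28.7 CPM in the treated libraries and at 7.95 CPM in control, and the wide bars of gamma delta T cells come from 0 to 8 UMIs per library.

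Other genes of activated tumour Treg were mostly higher as well. Of 12 such genes, 11 in anti-PD-1, 9 genes in anti-LIF and 11 genes in combo had a log2 ratio above 0 in Treg, with medians of 0.66, 0.50 and 0.80, where all genes measured had medians of 0.05, 0.07 and 0.08. A ratio of 2-fold or more was reached by 2, 3 and 4 of the 12, and by 6.63%, 7.82% and 5.37% of all genes measured. None of the 12 was 2-fold or more lower, where 5.65%, 5.11% and 4.64% of all genes were. Ikzf2, Il2ra, Ctla4 and Tnfrsf18 among the 12 were also the markers that checked the Treg gate. The part of gate purity in these ratios was not tested. Lrrc32, which displays latent TGF-beta on the Treg surface, was at 133, 124 and 78.1 CPM in the anti-PD-1, anti-LIF and combo libraries, against 25.3 CPM in control. Il1rl1, the interleukin-33 receptor and also a gate marker of innate lymphoid cells here, was at 152, 283 and 362 CPM, against 97.5 CPM in control. Irf4, a transcription factor of activated Treg, was lower in all 3, at 48.3, 61.8 and 58.6 CPM, against 78.0 CPM in control. Of 12 other homing genes 6 could be measured in Treg, and 0, 1 and 1 were 2-fold or more higher in the anti-PD-1, anti-LIF and combo libraries. The gene in question was Ccl8, a second ligand of CCR8 in mice made mainly by macrophages, at 30.9 CPM in anti-LIF and 79.1 CPM in combo, against 13 CPM in control. Treg with 2 or more markers of another class were 26.2%, 27.2% and 32.3% in the anti-PD-1, anti-LIF and combo libraries, against 31.9% in control. These shares do not cover other T cell subsets. A T cell with a Foxp3 UMI was called Treg even if it held a Cd8 UMI, and the part of such cells was not tested.

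The CCL20 axis was the faintest. Ccl20 had 4 UMIs in anti-PD-1, 17 UMIs in anti-LIF and 16 in combo, against 4 in control. Cancer cells, the epithelial class, held 0, 0 and 1 of these in the anti-PD-1, anti-LIF and combo libraries and 2 in control, so no difference there was detectable at this depth. Fibroblasts held 3, 17 and 15 UMIs, against 2 in control. In anti-LIF and in combo 1 fibroblast held 10 UMIs each, so the higher totals came from few cells. With the stricter gate fibroblasts held 1, 1 and 10 Ccl20 UMIs in the anti-PD-1, anti-LIF and combo libraries, against 0 in control. The 10 in combo were those of 1 cell. The class of the cells with Ccl20 is thus uncertain outside combo. Over all cells, 1 of the 7 inducers of CCL20 was 2-fold or more higher in each treated library, where 11.4%, 18.9% and 19.5% of all genes measured were. It was Il1b, the gene of interleukin-1 beta, at 489, 404 and 305 CPM against 105 CPM in control. For Il1b too, more cells of a type and more RNA per cell cannot be told apart over whole libraries.

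Ccr6, the CCL20 receptor, was found in Treg, in conventional CD4 T cells, in B cells and in gamma delta T cells, which can make interleukin-17. Gamma delta T cells held 5 UMIs in 51 anti-PD-1 cells, 2 in 82 anti-LIF cells and 8 in 80 combo cells, against 2 in 161 control cells. These counts are 70.6, 19.0 and 62.4 CPM, against 5.73 CPM in control, and the folds for anti-PD-1 and combo were 12.3 [2.02, 129] and 10.9 [2.17, 105]. At equal depth 4 of 34 anti-PD-1 and 5 of 63 combo cells had a UMI, against 0 of 128 in control, which allows up to 2.34%. The anti-LIF cells also held 0 UMIs at equal depth. With the stricter gate gamma delta T cells held 4, 0 and 7 UMIs in the anti-PD-1, anti-LIF and combo libraries, against 2 in control. Tcrg-C1, a gamma chain gene kept out of the gate, was at 2428, 2844 and 1919 CPM in gamma delta T cells of the anti-PD-1, anti-LIF and combo libraries, against 625 CPM in control. Its part in the Ccr6 difference was not tested. In Treg, Ccr6 had 9, 6 and 20 UMIs in the anti-PD-1, anti-LIF and combo libraries and 7 in control, or 21.7, 13.2 and 20.6 CPM against 5.06 CPM. The log2 ratio was 2.10 [0.51, 3.76] with anti-PD-1, 1.39 [-0.46, 3.19] with anti-LIF and 2.02 [0.72, 3.51] with combo. At equal depth the Treg shares were 2.59%, 1.89% and 1.11%, against 0.917% in control. Dendritic cells held a few UMIs as well, 21 in cDC2 and mature DC together in the 4 libraries.

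Over all cells, 0 of the 6 genes measured in anti-PD-1 were 2-fold or more higher than control, where 11.4% of all genes measured were. In anti-LIF the count was 3 of 7, with 18.9% of all genes, and in combo it was 3 of 7, with 19.5%. The 3 genes were Ccl17, Ccl22 and Ccl20 in both libraries, and none of the 7 was 2-fold or more lower in any library, where 4.29%, 6% and 5.8% of all genes were. Within T cells 3, 4 and 4 of the 6 genes measured were 2-fold or more higher in the anti-PD-1, anti-LIF and combo libraries, with 6.1%, 8.76% and 7.79% of all genes. These were Ccl1, Ccr8 and Ccr6 in all 3 libraries and Ccr4 in anti-LIF and combo. The T cell class pools its subsets, and CD8 T cells were 63.9%, 39.3% and 38.1% of it in the anti-PD-1, anti-LIF and combo libraries, against 66.6% in control. The part of these shares in the counts was not tested. In the other direction 1, 1 and 2 genes were 2-fold or more lower in T cells, with 4.16%, 6.62% and 7.18% of all genes. These were Ccl17 in anti-PD-1, Ccl22 in anti-LIF and both in combo. Control T cells with 2 or more mature DC markers held 82.3% of the control T cell UMIs of Ccl22, but 47.7% of those of Ccl17. Genes that act upstream of CCL17 and CCL22 were also followed. In mature DC 4 of 8 had enough UMIs in anti-LIF and combo, and 0 of 3, 3 of 4 and 1 of 4 were 2-fold or more higher in the anti-PD-1, anti-LIF and combo libraries, where 8.86%, 13% and 9.68% of all genes measured were. Csf2rb, the beta chain of the GM-CSF receptor, was at 710, 1311 and 959 CPM in treated mature DC, against 648 CPM in control. Il4ra, a chain of the interleukin-4 receptor, was at 93.3, 107 and 82.9 CPM, against 46.8 CPM in control. Il4 itself had 27, 30 and 147 UMIs in all cells of anti-PD-1, anti-LIF and combo, against 24 in control. These are raw counts from libraries of unequal size, with 64370186, 53944181 and 89787037 UMIs in total, against 103536619 in control. Per total UMIs, Il4 was thus higher in each treated library than in control.

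Across 51 units, each 1 class in 1 library with at least 100 cells, the gene most like Ccl17 by the Pearson correlation of log2(CPM + 1) was Ccl22 and the reverse also held (r = 0.86, a description over units that share libraries, among 13504 genes). Mature DC entered only from combo and cDC1 only from control, so the units held 4120 of the 8505 Ccl22 UMIs. Il12b, a subunit of interleukin-12, came next for Ccl22 (r = 0.83). The gene most like Ccr8 was Tnfrsf4, the costimulatory receptor OX40 (r = 0.91), and Izumo1r, a folate receptor of Treg, was also among its 5 closest (r = 0.89). For Ccr4, Trat1, a T cell receptor adaptor, was among the 5 closest (r = 0.89). For Ccr6, with 121 UMIs in the units, Mif4gd (r = 0.86) and Sdhaf1 (r = 0.85) were closest. Il2ra, the alpha chain of the interleukin-2 receptor, came after them (r = 0.82). Ccl1 was closest to Tespa1, a gene of T cell and mast cell receptor signalling (r = 0.83), and Ccl20, on 41 UMIs, to Comp, a gene of cartilage matrix (r = 0.92).

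**Figure D5:**
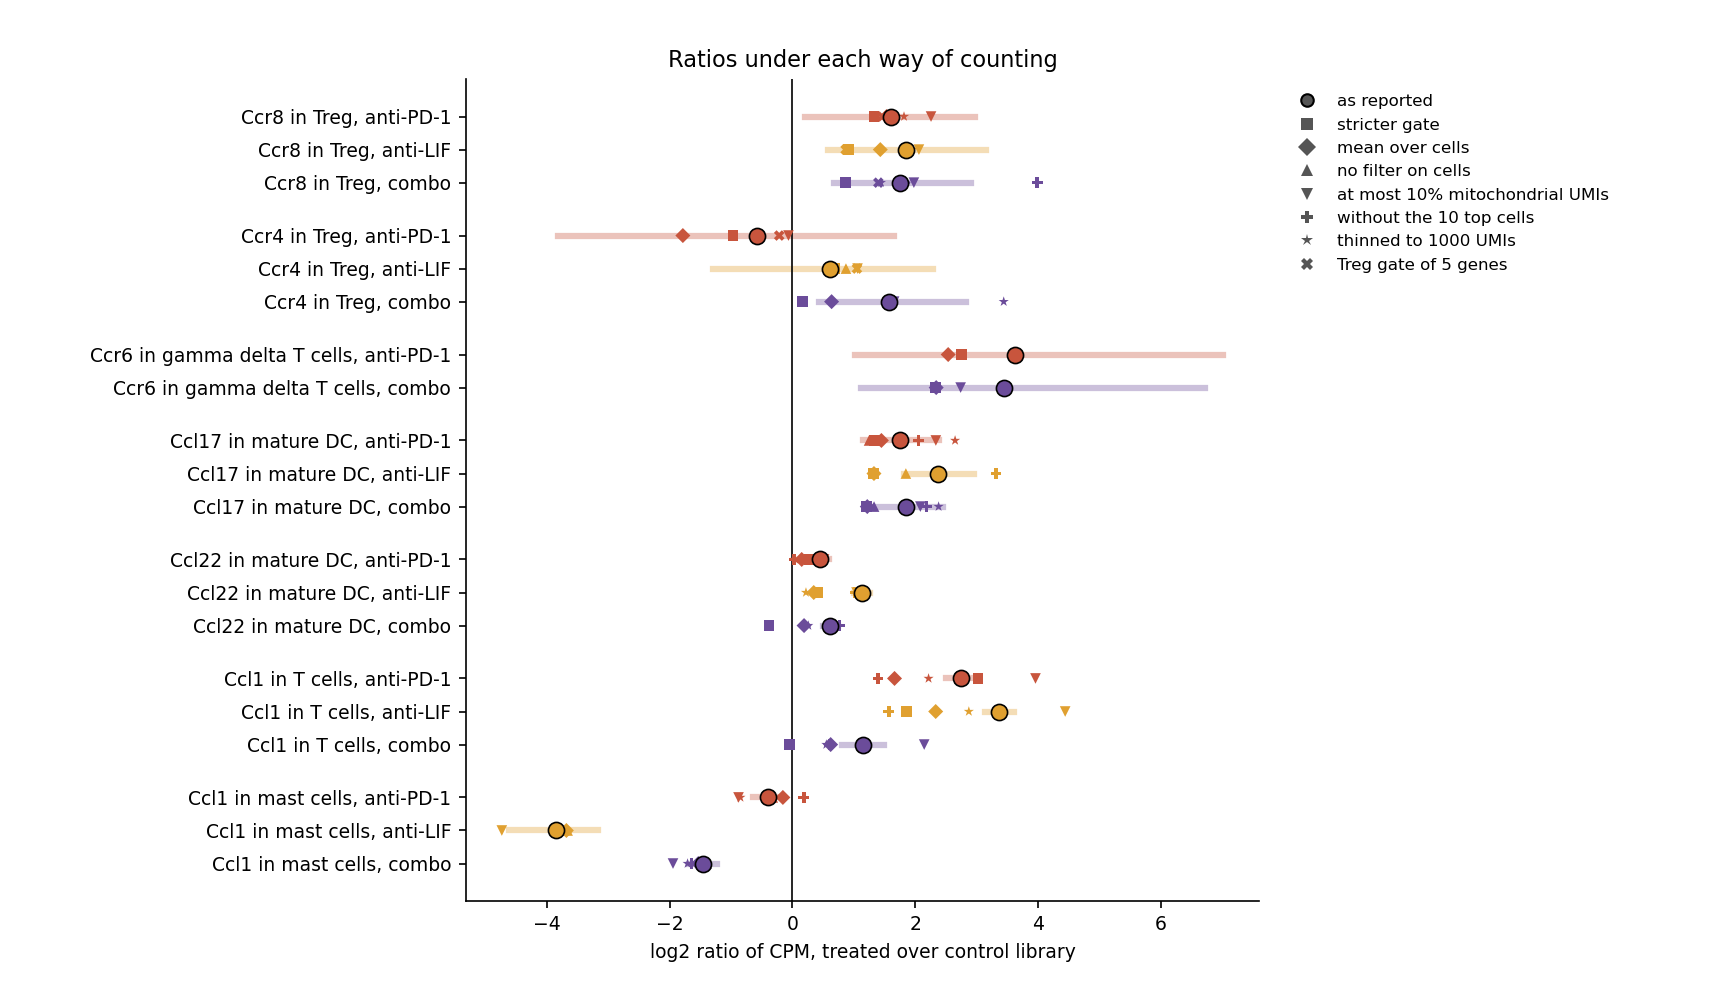
Log2 ratio of CPM of each treated library over control for 7 pairs of gene and class; large circles are the values reported with their 95% intervals (pale bars), and small symbols are the same ratio under other ways of counting. Ccl17 in mature DC stayed between 1.21 and 3.31 and Ccr8 in Treg above 0, while Ccl22 in mature DC came to lie near 0 under several of them.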

How the data were processed

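The 4 deposited matrices hold raw UMI counts per gene and barcode, per the file headers whole numbers without normalization, from the SeekOne MM 3′ kit per the labels. The barcode and feature lists, deposited beside them, hold other content (barcodes, gene identifiers and symbols). The submitters' processing notes name mm10 and Seurat 4.0.3. The aligner, counter and cell caller are not given in the sources used here, nor which library went on which of the 2 sequencing instruments.

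Barcodes under 200 genes or above 20% mitochondrial UMIs were dropped (53944181 to 103536619 UMIs per library remained). A cell joined 1 of 19 classes by the number of its markers detected (6 per class, at least 2, and more than for every other class). T cells were split by Foxp3 (Treg), Trdc, Cd8 and Cd4 genes. No doublet caller was run. UMIs were summed per class and library. CPM carry exact Poisson intervals, ratios exact conditional intervals and shares exact Clopper-Pearson intervals, all at 95% and for counting error only. No prior count entered the ratios of the 7 genes. For ratios over all genes 0.5 was added and 20 UMIs in both libraries together were required. A count of 0 was read as up to 3 counts. For equal depth, cells with at least 1000 UMIs were thinned to 1000, and shallower cells were left out: 6 of 63, 20 of 93, 15 of 118 and 3 of 58 mature DC, and 48 of 164, 56 of 162, 48 of 319 and 71 of 398 Treg, in anti-PD-1, anti-LIF, combo and control. The 7 genes are named in every class with at least 50 cells, and listed genes by their counts. Genes named from the lists or as most alike, and classes below 50 cells, were chosen after their values were seen. The 7 genes and the lists were chosen with earlier results of these data known. The alternatives were a stricter gate, a mean over cells, no filter, at most 10% mitochondrial UMIs, leaving out the 10 richest cells, thinning, and a Treg gate of 5 genes. Ratios, intervals and the gate were tested on simulated data. Python 3.11.15, numpy 2.4.6, scipy 1.17.1, pandas 2.3.3 and matplotlib 3.10.9 were used.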

Additional observations from a re-analysis of the deposited data

How the results depend on the processing

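Of the 366 log2 ratios recomputed under other ways of counting, 36 had the other sign, 26 of them for ratios whose reported interval takes in 0. The other 10 were for ratios with an interval on 1 side of 0. With the stricter gate, Ccl22 in combo mature DC was at -0.38, Ccl1 in combo T cells at -0.051, and Ccl22 in macrophages at -0.75 for anti-LIF and -0.55 for combo. Without the 10 richest cells, Ccl1 in anti-PD-1 mast cells was at 0.18. Ccl1 over all cells of anti-LIF was at -0.017 as a mean over cells, -0.019 at 10% mitochondrial UMIs, -0.60 without the 10 richest cells and -0.48 after thinning. Ccr4 over all cells of anti-LIF was at -0.015 at 10% mitochondrial UMIs. In these and the following cases the cause was not tested.

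Besides these 10, 102 recomputed ratios lay outside the reported interval. For the 7 pairs of gene and class drawn in the plot of ratios by way of counting they are given here, with treated libraries in the order anti-PD-1, anti-LIF, combo. The remaining 63 belong to other pairs: 26 were nearer to 0, 27 farther from it and 10 of the other sign. Ccl22 in mature DC was at 0.28 and 0.41 with the stricter gate for anti-PD-1 and anti-LIF, at 0.15, 0.35 and 0.19 as a mean over cells, and at 0.047, 0.22 and 0.26 after thinning. Without the 10 richest cells it was at 0.024 for anti-PD-1 and 0.76 for combo. Ccl17 in mature DC was at 1.32 and 1.21 with the stricter gate and 1.33 and 1.22 as a mean over cells for anti-LIF and combo, at 3.31 without the 10 richest cells for anti-LIF, and at 2.65 after thinning for anti-PD-1. Ccl1 in T cells was at 3.02 and 1.86 with the stricter gate for anti-PD-1 and anti-LIF, at 1.66, 2.33 and 0.62 as a mean over cells, and at 3.96, 4.44 and 2.15 at 10% mitochondrial UMIs. It was at 1.39, 1.57 and 0.60 without the 10 richest cells and at 2.22, 2.87 and 0.55 after thinning. Ccl1 in mast cells, an addition made after the data were seen, was at -0.88, -4.73 and -1.94 at 10% mitochondrial UMIs. It was at -0.16 as a mean over cells for anti-PD-1, and at -0.85 and -1.71 after thinning for anti-PD-1 and combo. Ccr8 in combo Treg was at 3.99 without the 10 richest cells, and Ccr4 in combo Treg at 0.16 with the stricter gate and 3.44 after thinning.

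Some alternatives gave no value because too few UMIs remained, among them all those for Ccl20 in cancer cells and for Ccr6 in anti-LIF gamma delta T cells. No paired analysis was possible because each group was 1 library. For the receptors and Ccl20, depth is the limit: Treg held at most 26 UMIs of any of the 3 receptors in a library.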
